A study of Mus musculus with 15 samples.

Results

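The genes described are the 10 G1 cyclins and cyclin-dependent kinase (CDK) inhibitors Ccnd1, Ccnd2, Ccnd3, Ccne1, Ccne2, Cdkn1a, Cdkn1b, Cdkn2c, Cdkn2d and the retinoblastoma gene Rb1, measured in sorted mouse XCR1+ dendritic cells (DCs). A probe set was taken where its platform annotation gave exactly 1 of these symbols, which found 24 probe sets, and where a gene had several, the one brightest on average across the 15 arrays stood for it. These 10 are among 18194 genes with such a probe set, and all 10 were among the 13629 genes bright enough to be tested. Values are log2 signals from Affymetrix whole-genome mouse arrays, so 1 unit is a 2-fold difference, and levels are compared between groups for 1 probe set, not between genes.

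The arrays fall into 5 groups of 3. Thymus CCR7+ and thymus CCR7- cells came from untreated mice. PolyI:C spleen CCR7+ cells were collected 18 h after mice were given 10 µg polyI:C, a synthetic double-stranded RNA, into the peritoneal cavity, and spleen CCR7+ and spleen CCR7- cells came from untreated mice. Every group was gated as CD11c+ CD317- CD172a-, with CD117- CCR7+ for the mature and CD117+ CCR7- for the immature fraction. CCR7 is the chemokine receptor that mature DCs carry. XCR1 is in the name of the cells but not among the gates given, strain and age are not stated, and no polyI:C-treated CCR7- group was used here. Titles of all spleen arrays carry the tag LT_SetA and those of the thymus arrays do not. What the tag marks is not stated, so in comparisons of thymus with spleen it cannot be told apart from tissue. Nothing states that the 3 samples of a group came from separate mice, so the p-values rest on a spread that may be technical.

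D-type cyclins bind CDK4 and CDK6 in response to growth signals, and E-type cyclins bind CDK2 at entry into S phase. Both kinases phosphorylate the retinoblastoma protein, which otherwise holds E2F transcription factors inactive. Inhibitors of the CIP/KIP class (p21, p27) act on CDK2 complexes, and those of the INK4 class (p15, p16, p18, p19) act on CDK4 and CDK6. Precursors of conventional DCs divide, whereas mature DCs are regarded as largely post-mitotic.

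The summed signal of XCR1+ DC markers was lower in the mature fractions than in the immature ones. Of 11 listed markers 10 had a probe set, and the sum (linear scale) was 9683 to 11571 in thymus CCR7+ and 34068 to 37973 in thymus CCR7- arrays. In spleen it was 9657 to 11628 after polyI:C and 14280 to 21134 in untreated CCR7+ arrays, against 44172 to 48414 in CCR7- arrays. In thymus CCR7+ cells Xcr1 averaged 5.25 and Tlr3 4.51, near the filter value of 4.39, whereas Irf8 and Batf3, transcription factors of this lineage, averaged 12.54 and 10.18. Marker sums of other cells also moved with the groups. That of 10 T cell and thymocyte markers was 980.1 to 2968 in thymus CCR7+ and 328 to 677 in thymus CCR7- arrays, against 230.5 to 295 over the spleen arrays, where Rag1, Rag2 and Dntt lay below the filter value in every array. That of 5 B cell markers was 774 to 1255 after polyI:C and 1394 to 4554 in untreated spleen CCR7+ arrays, against 712 to 787 in spleen CCR7- arrays. The sum of 6 macrophage and monocyte markers was 483 to 1133 in thymus CCR7+ and 1628 to 2148 in thymus CCR7- arrays, and 331 to 1548 after polyI:C and 922 to 1793 in untreated spleen CCR7+ arrays, against 2614 to 3784 in spleen CCR7- arrays. That of 5 plasmacytoid DC markers was 610.3 to 1327 in thymus CCR7+ and 1690 to 1721 in thymus CCR7- arrays, and 261 to 648 after polyI:C and 453 to 968 in untreated spleen CCR7+ arrays, against 1294 to 1551 in spleen CCR7- arrays. That of 5 thymic epithelium markers was 489 to 620 in thymus CCR7+ and 1458 to 1636 in thymus CCR7- arrays, against 145 to 252 over the spleen arrays. Epcam led the last list in thymus CCR7- cells (10.44, against 8.17 in thymus CCR7+ cells), and Psmb11 lay below the filter value in every array. Krt8 and Krt5 went against that sum, at 7.24 and 5.82 in thymus CCR7+ and 5.80 and 5.48 in thymus CCR7- cells. Of the macrophage and monocyte markers, C1qa and C1qb were also higher in thymus CCR7+ (6.38 and 6.16) than in thymus CCR7- cells (4.93 and 4.94). In the plasmacytoid DC list Ccr9 led the splenic fall, at 6.77 after polyI:C and 7.83 in untreated CCR7+ cells, against 9.86 in CCR7- cells. Pacsin1 and Tcf4 were lower there too. Siglech and Cox6a2 were slightly higher in both mature splenic groups, Cox6a2 at 5.68 after polyI:C and 5.83 untreated, against 5.66. The part of these markers in the results below was not tested. In bulk sorted samples, fewer cells of a type and less RNA per cell cannot be told apart.

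In thymic maturation (thymus CCR7+ minus thymus CCR7-), 1 of the 10 genes was called higher and 5 lower, where 37.3% of all tested genes were called, 16.8% higher and 20.4% lower. Calls were made by limma at an adjusted p (Benjamini-Hochberg, over the 13629 genes) under 0.05. The median change of the 10 genes was -0.47 against -0.060 over all genes tested. In homeostatic splenic maturation (spleen CCR7+ minus spleen CCR7-), 2 were higher and 2 lower, where 36.5% of all genes were called, 12.3% higher and 24.1% lower (median -0.49 against -0.032 over all genes). Between polyI:C spleen CCR7+ and spleen CCR7- cells, 4 were higher and 2 lower, where 46.4% were called, 18.4% higher and 28% lower (median 0.059 against 0.019). These last 2 comparisons share the spleen CCR7- arrays. The 10 genes were therefore called in 6, 4 and 6 cases in comparisons where 36.5% to 46.4% of all genes were called, and the counts do not set these genes apart. The arrays of the 2 groups did not overlap for 7, 4 and 6 of the 10 genes in these comparisons. Over all genes tested, the shares without overlap were 50.4%, 43% and 57.2%.

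The D-type cyclins parted in direction. Ccnd2 (cyclin D2) rose in all 3 maturation comparisons, Ccnd1 (cyclin D1) fell in the thymus and after polyI:C, and Ccnd3 (cyclin D3) rose after polyI:C. Ccnd2 read 9.56, 10.16 and 9.83 in thymus CCR7+ arrays, against 7.36, 8.14 and 6.93 in thymus CCR7- arrays. In spleen it read 10.36, 10.91 and 11.15 after polyI:C and 8.63, 8.75 and 8.29 in untreated CCR7+ cells, against 6.35, 6.71 and 5.87 in CCR7- cells. Every mature array therefore lay above every immature array, and the polyI:C arrays lay above all others. The rise was 2.38 ± 0.30 (SE) in the thymus, a 5.19-fold change (limma, adjusted p = 2.36e-05), and 2.25 ± 0.30 in the untreated spleen, a 4.76-fold change (limma, adjusted p = 6.3e-05). With polyI:C it was 4.50 ± 0.30, a 22.6-fold change (limma, adjusted p = 3.78e-08), the widest range between group means among the 10 genes. All 7 probe sets of Ccnd2 were higher in the mature cells, by 1.05 to 2.38 in the thymus, 0.76 to 2.61 in the untreated spleen and 2.60 to 4.71 with polyI:C.

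**Figure D1:**
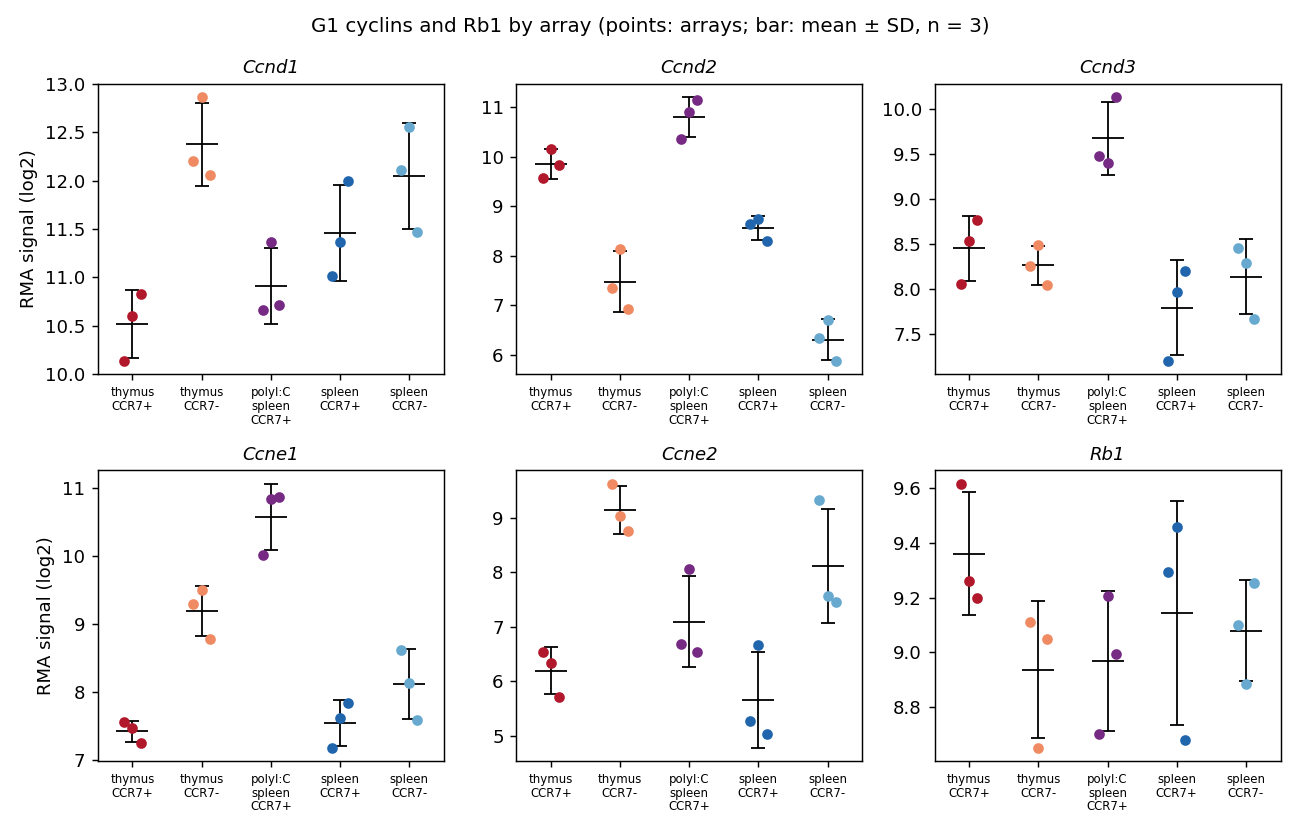
Log2 signal of the 5 cyclin genes and Rb1 (vertical axis, 1 panel per gene) in each array (points) of the 5 groups (horizontal axis), with group means and SD as bars. Ccnd2 is highest in the 3 polyI:C arrays (10.36 to 11.15) and lowest in spleen CCR7- arrays (5.87 to 6.71), whereas Ccnd1 is highest in the CCR7- groups.

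Ccnd1 averaged 10.52 ± 0.35 in thymus CCR7+ cells and 12.38 ± 0.43 in thymus CCR7- cells (SD, n = 3 each). Its arrays did not overlap in the thymus, where it fell by 1.86 on the log2 scale (SE 0.32; limma, adjusted p = 0.000378), and its 3 probe sets changed by -2.33 to -1.86. In spleen it averaged 10.91 ± 0.39 after polyI:C and 11.46 ± 0.49 in untreated CCR7+ cells, against 12.05 ± 0.55 in CCR7- cells. The difference with polyI:C was -1.13 ± 0.32 (limma, adjusted p = 0.0101), a call that ended without spleen CCR7- replicate 2 (-0.88, adjusted p = 0.0541). The other 2 probe sets gave -0.80 and -0.47, so the value used was the largest. That of the untreated spleen was -0.59 (95% interval -1.29 to 0.11) and missed the threshold (limma, adjusted p = 0.184).

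Ccnd3 read 9.48, 9.40 and 10.13 in polyI:C arrays, against 7.20, 7.97 and 8.20 in untreated spleen CCR7+ and 8.46, 8.28 and 7.67 in spleen CCR7- arrays. The polyI:C arrays stood above both untreated groups, which overlapped each other. The rise over spleen CCR7- cells was 1.53 ± 0.29 (limma, adjusted p = 0.000534). The other 2 probe sets of Ccnd3, with means of 5.63 and 5.78 against 8.46 for the one used, changed by -0.30 and 0.54 in the same comparison, so the probe sets disagreed. In the thymus the gene averaged 8.45 ± 0.36 in CCR7+ and 8.26 ± 0.22 in CCR7- cells, a difference of 0.19 (limma, adjusted p = 0.68).

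Of the E-type cyclins, Ccne2 (cyclin E2) fell in both untreated tissues, and Ccne1 (cyclin E1) fell in the thymus and rose with polyI:C. Ccne2 read 6.54, 6.35 and 5.72 in thymus CCR7+ arrays, against 9.62, 9.03 and 8.76 in thymus CCR7- arrays. In spleen it read 6.69, 8.06 and 6.54 after polyI:C and 5.28, 6.67 and 5.04 in untreated CCR7+ cells, against 9.33, 7.57 and 7.46 in CCR7- cells. The thymic groups and the untreated splenic groups did not overlap, and polyI:C replicate 2 lay inside the range of spleen CCR7- arrays. The fall was 7.65-fold in the thymus (-2.94 ± 0.54; limma, adjusted p = 0.000552) and 5.48-fold in the untreated spleen (-2.45 ± 0.54; limma, adjusted p = 0.00252). With polyI:C the difference was -1.02 (95% interval -2.18 to 0.13; limma, adjusted p = 0.138), and without polyI:C replicate 2 it was -1.50 (adjusted p = 0.0382).

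Ccne1 read 10.01, 10.85 and 10.87 in polyI:C arrays, against 7.18, 7.63 and 7.84 in untreated spleen CCR7+ and 8.62, 8.14 and 7.60 in spleen CCR7- arrays. The polyI:C arrays lay above all other arrays of the series. The rise over spleen CCR7- cells was 5.50-fold (2.46 ± 0.29; limma, adjusted p = 7.49e-06), and the 2 probe sets gave 2.37 and 2.46. Thymus CCR7+ arrays read 7.55, 7.47 and 7.25, against 9.29, 9.50 and 8.79 in thymus CCR7- arrays. There the gene fell by 1.77 on the log2 scale (SE 0.29; limma, adjusted p = 0.00021). In the untreated spleen the difference was -0.57 (95% interval -1.19 to 0.052; limma, adjusted p = 0.148), and the second probe set gave -1.07 (adjusted p = 0.0197). Without spleen CCR7- replicate 3 the difference was -0.83 (adjusted p = 0.0458).

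The 250 bases before the Ccne1 start are printed because this gene had the largest polyI:C difference of the 10 against untreated mature cells. The window is from RefSeq (GRCm38.p6, chr7:38107491-38107740, minus strand), 5′ to 3′, with GC boxes (GGGCGG on either strand) in capitals. GC boxes were in 32.7% of 32851 such windows of all genes.
Ccne1: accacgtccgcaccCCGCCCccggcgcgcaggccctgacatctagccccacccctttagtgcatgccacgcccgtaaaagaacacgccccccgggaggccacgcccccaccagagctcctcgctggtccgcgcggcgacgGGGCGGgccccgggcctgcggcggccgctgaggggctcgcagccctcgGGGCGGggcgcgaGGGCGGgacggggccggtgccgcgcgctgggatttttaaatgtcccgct
Of the 10 genes, 6 had such windows, 9 in all. None of the 9 held the letters searched for E2F (TTTCCCGC, TTTCGCGC, TTTGCCGC or TTTGGCGC, in 1.86% of all windows), CHR (TTTGAA, 16%) or the E-box (CACGTG, 6.02%), on either strand. That says only that these letters were not in these windows.

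**Figure D2:**
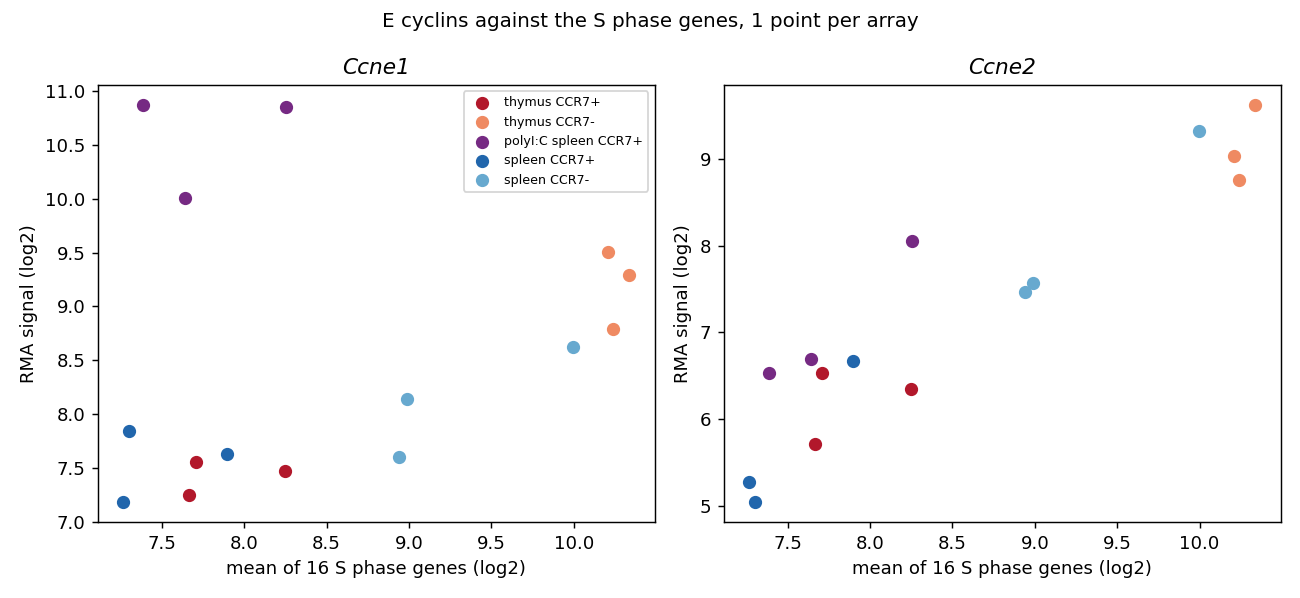
Ccne1 (left) and Ccne2 (right) signal (log2, vertical axis) against the mean of 16 E2F target genes of S phase (log2, horizontal axis), 1 point per array, coloured by group. The S phase level is high in both CCR7- groups and low in all 3 CCR7+ groups, with polyI:C arrays at 7.64, 8.26 and 7.38, whereas Ccne1 is highest with polyI:C.

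The S phase level gives a scale for the E cyclins. Of 16 tested E2F target genes of S phase, such as Cdc6 and Rrm2, 15 fell in thymic maturation (median -2.12), 14 fell and 1 rose in the untreated spleen (median -1.85), and 13 fell with polyI:C (median -1.55). Of all genes 20.4%, 24.1% and 28% were called lower in these comparisons, and the medians over all genes were -0.060, -0.032 and 0.019. The mean of the 16 was 7.71, 8.25 and 7.67 in thymus CCR7+ arrays, against 10.34, 10.21 and 10.24 in thymus CCR7- arrays. In spleen it was 7.64, 8.26 and 7.38 after polyI:C and 7.27, 7.90 and 7.30 in untreated CCR7+ cells, against 10.00, 8.99 and 8.94 in CCR7- cells. Spleen CCR7- replicate 1 stood above the other 2 arrays of its group here and in Ccne2. Without it the Ccne2 fall of the untreated spleen was -1.85 and kept its call (limma, adjusted p = 0.0142).

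Among the CIP/KIP inhibitors, Cdkn1a (p21) rose in both splenic comparisons and Cdkn1b (p27) was called in none. Cdkn1a read 11.37, 11.38 and 11.45 in polyI:C arrays and 11.29, 11.97 and 12.72 in untreated spleen CCR7+ arrays, against 8.84, 10.29 and 9.44 in spleen CCR7- arrays. All 6 mature splenic arrays lay above the 3 immature ones. The rise was 5.54-fold in the untreated spleen (2.47 ± 0.39; limma, adjusted p = 0.000223) and 3.67-fold with polyI:C (1.88 ± 0.39; limma, adjusted p = 0.00107). Thymus CCR7+ arrays read 11.99, 12.50 and 12.64, against 11.21, 12.31 and 11.51 in thymus CCR7- arrays. Immature thymic arrays lay near the mature ones, the thymic groups overlapped, and the difference of 0.70 (95% interval -0.13 to 1.54) missed the threshold (limma, adjusted p = 0.186). The second probe set gave 1.27 in the thymus (adjusted p = 0.00218), so whether Cdkn1a is called there depends on the probe set.

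Cdkn1a has 2 annotated starts, and both windows of 250 bases are printed because p21 is a textbook p53 target and other p53 targets are described below. In the first (GRCm38.p6, chr17:29090729-29090978, plus strand) capitals mark matches to the p53 half-site, which 7.13% of all windows held.
Cdkn1a, first start: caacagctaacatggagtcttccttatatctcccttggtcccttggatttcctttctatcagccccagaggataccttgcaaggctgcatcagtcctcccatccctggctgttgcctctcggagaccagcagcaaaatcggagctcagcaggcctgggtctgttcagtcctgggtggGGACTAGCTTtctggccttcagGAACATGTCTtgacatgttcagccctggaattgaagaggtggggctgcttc
In the second (chr17:29093519-29093768, plus strand) capitals mark GC boxes.
Cdkn1a, second start: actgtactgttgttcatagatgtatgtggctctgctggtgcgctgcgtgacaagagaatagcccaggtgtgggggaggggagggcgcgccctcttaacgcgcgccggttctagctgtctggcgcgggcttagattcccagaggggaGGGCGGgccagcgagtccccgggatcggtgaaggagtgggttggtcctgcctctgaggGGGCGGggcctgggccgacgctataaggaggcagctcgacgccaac
Counted from the start, the matches of the first window lay at -73 to -64 and -51 to -42. The Cdkn2d window also held a half-site match, at -102 to -93. The arrays do not separate transcripts of the 2 starts.

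Cdkn1b averaged 8.45 ± 0.40 in thymus CCR7+ and 8.14 ± 0.27 in thymus CCR7- cells (SD, n = 3 each). Splenic means were 8.75 ± 0.25 after polyI:C and 8.07 ± 0.60 in untreated CCR7+ cells, against 8.52 ± 0.37 in CCR7- cells. Its group means spanned 0.68, and its groups overlapped in all 3 maturation comparisons. The changes were 0.31 in the thymus (95% interval -0.31 to 0.94), -0.45 in the untreated spleen (-1.08 to 0.17) and 0.23 with polyI:C (-0.40 to 0.85). The splenic one was -0.77 without spleen CCR7+ replicate 3 (adjusted p = 0.0425). Transcript level is a partial view of p27, which is known to be controlled largely by protein turnover. Of 11 genes for the turnover of p27, cyclin E and cyclin D, 5 fell in the thymus, 3 in the untreated spleen and 3 with polyI:C, and none rose. In the thymus 20.4% of all genes were called lower. The 3 of 11 in each splenic comparison is close to the 24.1% and 28% of all genes called lower there. Skp2, the F-box protein that marks p27 for destruction, averaged 6.22 in thymus CCR7+ and 8.11 in thymus CCR7- cells, and 6.04 after polyI:C and 5.72 in untreated spleen CCR7+ cells, against 7.13 in spleen CCR7- cells. It fell by 1.89 in the thymus (limma, adjusted p = 0.00307) and fell by 1.41 in the untreated spleen (limma, adjusted p = 0.0196), and with polyI:C the difference of -1.09 missed the threshold (limma, adjusted p = 0.0524).

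**Figure D3:**
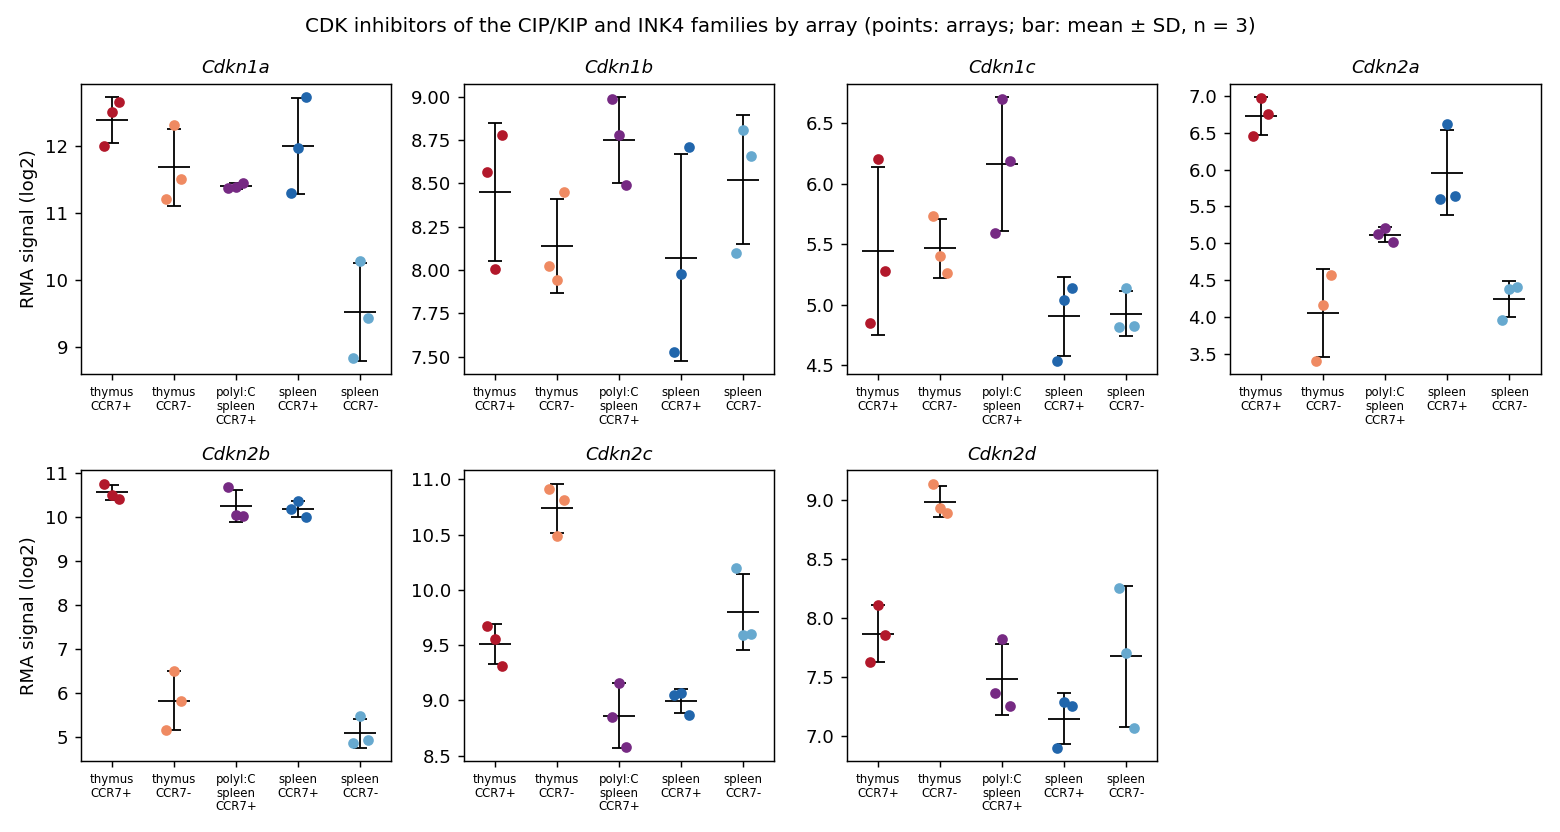
Log2 signal of 7 CDK inhibitor genes, 4 of them among the 10 described and Cdkn1c, Cdkn2a and Cdkn2b beside them (vertical axis, 1 panel per gene), in each array (points) of the 5 groups (horizontal axis), with group means and SD as bars. Cdkn1a is lowest in spleen CCR7- arrays (8.84 to 10.29), Cdkn2c is highest in both CCR7- groups, and Cdkn2b is near 10 in every CCR7+ group.

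The INK4 gene Cdkn2c (p18) fell in all 3 maturation comparisons. It read 9.67, 9.55 and 9.31 in thymus CCR7+ arrays, against 10.91, 10.48 and 10.81 in thymus CCR7- arrays. In spleen it read 8.85, 9.16 and 8.57 after polyI:C and 9.05, 9.06 and 8.87 in untreated CCR7+ cells, against 10.20, 9.59 and 9.60 in CCR7- cells. Within each tissue the mature arrays lay below all immature ones. The change was -1.23 ± 0.20 in the thymus (limma, adjusted p = 0.000179). It was -0.80 in the untreated spleen (limma, adjusted p = 0.00509) and -0.94 with polyI:C (limma, adjusted p = 0.00115). One of its 2 windows is shown as that of a gene called lower in all 3 (GRCm38.p6, chr4:109666757-109667006, minus strand), with GC boxes in capitals.
Cdkn2c: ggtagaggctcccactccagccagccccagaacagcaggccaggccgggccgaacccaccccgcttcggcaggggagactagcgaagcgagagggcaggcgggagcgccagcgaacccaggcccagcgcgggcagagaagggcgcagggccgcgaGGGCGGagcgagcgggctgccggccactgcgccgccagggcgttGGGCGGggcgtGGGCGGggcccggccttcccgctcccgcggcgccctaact

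Cdkn2d (p19) averaged 7.86 ± 0.24 in thymus CCR7+ and 8.98 ± 0.13 in thymus CCR7- cells, without overlap, and fell by 1.12 (SE 0.25; limma, adjusted p = 0.0027). Splenic means were 7.48 ± 0.30 after polyI:C and 7.14 ± 0.22 in untreated CCR7+ cells, against 7.67 ± 0.60 in CCR7- cells. The splenic groups overlapped. The differences there were -0.19 with polyI:C (adjusted p = 0.558) and -0.53 in the untreated spleen (adjusted p = 0.125), in limma. The untreated one was called without spleen CCR7- replicate 3 (-0.83, adjusted p = 0.0123).

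Of the 4 other CDK inhibitor genes listed, the INK4 gene Cdkn2b rose in all 3 maturation comparisons. Cdkn2b (p15) read 10.75, 10.50 and 10.41 in thymus CCR7+ arrays, against 5.15, 6.49 and 5.82 in thymus CCR7- arrays. Splenic cells averaged 10.24 ± 0.37 after polyI:C and 10.17 ± 0.18 in untreated CCR7+ cells, against 5.08 ± 0.33 in CCR7- cells. It rose by 4.73 in the thymus (limma, adjusted p = 2.2e-08), 5.09 in the untreated spleen (limma, adjusted p = 1.69e-08) and 5.16 with polyI:C (limma, adjusted p = 5.97e-09). Cdkn2a, whose locus encodes p16 and the alternative-frame product, averaged 6.72 in thymus CCR7+ and 4.05 in thymus CCR7- cells, below the filter value. In spleen it averaged 5.12 after polyI:C and 5.95 in untreated CCR7+ cells, against 4.25 in CCR7- cells, again below the filter value. Its CCR7- levels cannot be told from background, so no size or test is given for its differences. Cdkn2b thus rose in all 3 comparisons while Cdkn2c fell in all 3. Cdkn1c (p57), the CIP/KIP member outside the 10, rose with polyI:C by 1.24 (limma, adjusted p = 0.00549), with differences of -0.02 in both untreated tissues. Cdkn3, a CDK-associated phosphatase, averaged 4.09 in thymus CCR7+ and 7.85 in thymus CCR7- cells, and 4.61 after polyI:C and 4.08 in untreated spleen CCR7+ cells, against 5.49 in spleen CCR7- cells. It was called lower in the thymus and the untreated spleen, where its CCR7+ levels lay below the filter value, and was not called with polyI:C (-0.88; limma, adjusted p = 0.0526).

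Rb1 encodes the pocket protein on which these kinases act. It read 9.62, 9.26 and 9.20 in thymus CCR7+ arrays, against 9.11, 8.65 and 9.05 in thymus CCR7- arrays, which did not overlap. The difference of 0.42 (95% interval -0.037 to 0.88) missed the threshold (limma, adjusted p = 0.148), and the second probe set gave -0.22. In spleen Rb1 averaged 8.97 ± 0.25 after polyI:C and 9.14 ± 0.41 in untreated CCR7+ cells, against 9.08 ± 0.18 in CCR7- cells. The differences were -0.11 with polyI:C (95% interval -0.57 to 0.35) and 0.064 in the untreated spleen (-0.40 to 0.52), and the span of its group means, 0.42, was the smallest of the 10. Of 9 other pocket protein and DREAM complex genes, 2 rose and 3 fell in the thymus, 1 fell in the untreated spleen, and 1 rose and 2 fell with polyI:C. Of all genes 37.3% were called in the thymus, 16.8% higher and 20.4% lower. The calls in spleen, 1 and 3 of 9, were fewer than the 36.5% and 46.4% of all genes called there. The pocket protein Rbl1 (p107) averaged 11.08 after polyI:C against 9.20 in spleen CCR7- cells and rose by 1.88 (limma, adjusted p = 0.00024). Rbl2 (p130) averaged 7.53 in thymus CCR7+ against 6.65 in thymus CCR7- cells and rose by 0.88 (limma, adjusted p = 0.00709).

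**Figure D4:**
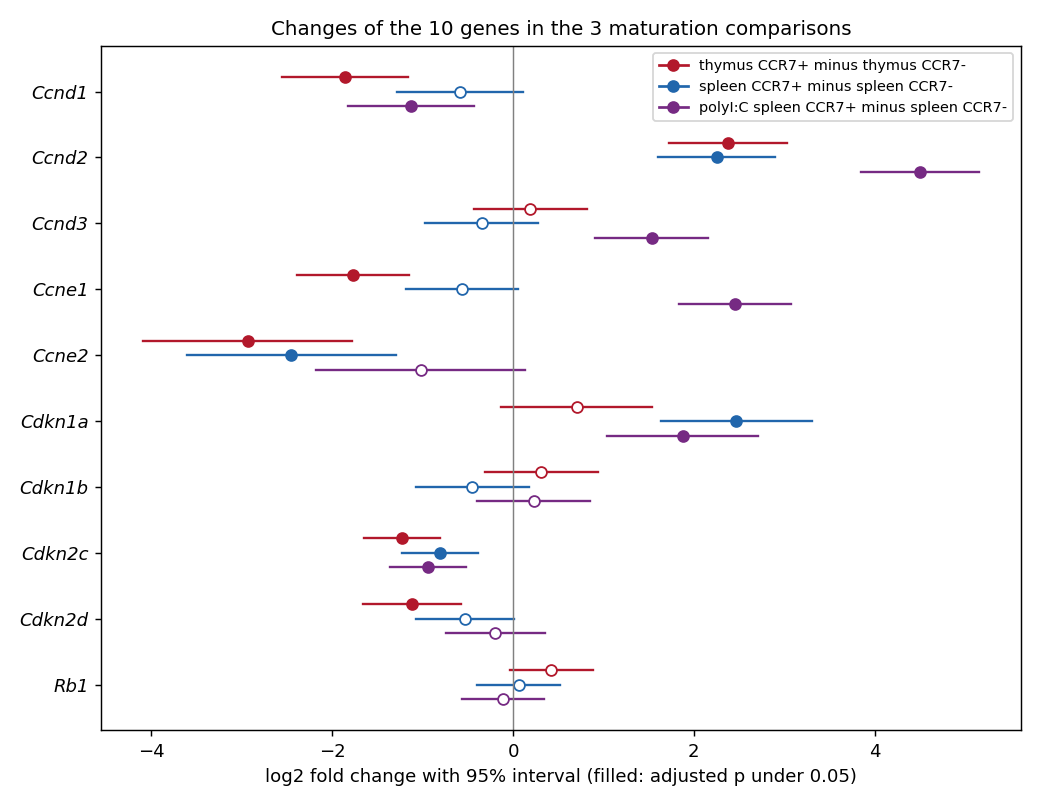
Log2 fold change of each of the 10 genes (rows) in thymic, homeostatic splenic and polyI:C splenic maturation, mature minus immature, with 95% intervals (horizontal axis); filled points passed an adjusted p of 0.05. Ccnd2 lies right of 0 (2.38, 2.25 and 4.50) and Cdkn2c left of it in all 3, whereas Ccne1 lies at -1.77 in the thymus and at 2.46 with polyI:C.

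The kinases and transcription factors with which the 10 genes act were counted as lists. Of 7 CDKs and CDK-activating kinase subunits, 4 fell in the thymus, 3 in the untreated spleen and 5 with polyI:C, and none rose (medians -1.11, -0.64 and -0.84). The shares of all genes called lower were 20.4%, 24.1% and 28%, and the medians over all genes were -0.060, -0.032 and 0.019. Cdk4, the partner of the D cyclins, averaged 8.63 in thymus CCR7+ and 10.24 in thymus CCR7- cells. In spleen it averaged 6.73 after polyI:C and 8.25 in untreated CCR7+ cells, against 10.01 in CCR7- cells. Its change was -1.61 in the thymus (limma, adjusted p = 0.000401), -1.76 in the untreated spleen (limma, adjusted p = 0.000274) and -3.28 with polyI:C (limma, adjusted p = 4.17e-07), so that Cdk4 was lowest in the group where Ccnd2 and Ccnd3 were highest. Cdk2, the partner of the E cyclins, fell by 1.11 in the thymus (limma, adjusted p = 0.00239), and its differences were -0.64 in the untreated spleen and 0.23 with polyI:C. Of 10 E2F and DP genes 8 fell in each of the 3 comparisons (medians -1.07, -0.86 and -1.17), where 20.4%, 24.1% and 28% of all genes were called lower. Among them were the repressor E2f8 (-3.88, -2.50 and -1.71 for thymus, untreated spleen and polyI:C) and the activator E2f2 (-2.05, -0.95 and -1.11).

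Of 12 tested genes of the p53 pathway, Trp53 itself not among them, 6 rose and 1 fell in the thymus, 4 rose and 2 fell in the untreated spleen, and 3 rose and 4 fell with polyI:C. Of all genes 16.8%, 12.3% and 18.4% were called higher. Gadd45a, a growth arrest gene, averaged 9.21 in thymus CCR7+ and 7.32 in thymus CCR7- cells. In spleen it averaged 10.06 after polyI:C and 9.26 in untreated CCR7+ cells, against 6.24 in CCR7- cells. It rose by 1.89, 3.02 and 3.82 in the thymus, the untreated spleen and with polyI:C (limma, adjusted p = 0.0016, 5.28e-05 and 2.39e-06), and Mdm2, the p53 ubiquitin ligase, by 0.70, 0.76 and 1.05. Btg2, an antiproliferative p53 target, changed by -1.33, -1.64 and -2.17 in the same comparisons, so the list did not move one way.

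Mature cells after polyI:C were set directly against untreated mature cells of the spleen. There 3 of the 10 genes were called higher and none lower, where 18.2% of all genes were called, 8.58% higher and 9.66% lower. Their median difference was 0.51 against 0.012 over all genes tested. The B cell marker sum was 774 to 1255 after polyI:C and 1394 to 4554 in untreated spleen CCR7+ arrays, and that of 3 neutrophil markers 96.1 to 110.2 after polyI:C and 46.7 to 75.4 in untreated spleen CCR7+ arrays. The neutrophil sums are dim: 0 of the 3 markers lay above the filter value in every untreated spleen CCR7+ array, and 2 did in every polyI:C array. The part of both marker sums was not tested. Ccne1 was 8.15-fold higher with polyI:C (3.03 ± 0.29; limma, adjusted p = 7.08e-06), with 3.03 and 3.44 for its 2 probe sets. Ccnd2 was 4.76-fold higher (2.25 ± 0.30; limma, adjusted p = 0.000148) and Ccnd3 3.68-fold higher (1.88 ± 0.29; limma, adjusted p = 0.000456), although the other Ccnd3 probe sets differed by -0.096 and 0.48. Ccne2 differed by 1.43 (95% interval 0.28 to 2.59; limma, adjusted p = 0.0841). It was called without untreated spleen CCR7+ replicate 2 (1.94, adjusted p = 0.0269) and without spleen CCR7- replicate 1, which enters only the shared variance (adjusted p = 0.0442). For the inhibitors the differences were -0.59 for Cdkn1a (95% interval -1.43 to 0.24), 0.68 for Cdkn1b (0.054 to 1.31), -0.13 for Cdkn2c (-0.56 to 0.29) and 0.33 for Cdkn2d (-0.21 to 0.88), with adjusted p of 0.131 to 0.724 in limma. Cdkn1b was called without untreated spleen CCR7+ replicate 3 (adjusted p = 0.0225). The second Cdkn1a probe set was lower with polyI:C (-1.23, adjusted p = 0.00698). Ccnd1 differed by -0.54 (95% interval -1.24 to 0.15) and Rb1 by -0.17 (-0.63 to 0.28), and neither was called. Around them, Cdk4 and Cdk6 were lower with polyI:C, at -1.52 and -1.54 (limma, adjusted p = 0.00183 and 0.00163), and Cdk1, the mitotic kinase, was higher by 1.34 (limma, adjusted p = 0.00819).

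Immature cells of the thymus had higher levels of several of the 10 genes than those of the spleen. Of the 10, 5 were called higher in thymus CCR7- than in spleen CCR7- cells and none lower, where 8.16% of all genes were called, 4.92% higher and 3.24% lower. Their median difference was 0.98 against 0.036 over all genes. Cdkn1a was 4.44-fold higher (11.67 ± 0.57 in thymus CCR7- and 9.52 ± 0.73 in spleen CCR7- cells; 2.15 ± 0.39 SE; limma, adjusted p = 0.00243). Both INK4 members were higher in the thymus, Cdkn2d by 1.31 ± 0.25 and Cdkn2c by 0.94 ± 0.20 (limma, adjusted p = 0.00389 and 0.00713). Ccnd2 was higher by 1.17 ± 0.30 and Ccne1 by 1.08 ± 0.29 (limma, adjusted p = 0.0265 and 0.0325). These last 2 calls lay close to the threshold. The Ccnd2 call ended without thymus CCR7- replicate 1 (1.23, adjusted p = 0.06) or 2 (0.84, adjusted p = 0.128) and without spleen CCR7- replicate 1 (1.19, adjusted p = 0.0637) or 3 (0.95, adjusted p = 0.129), and with the compared groups fitted alone (1.17, adjusted p = 0.0528). The Ccne1 call ended without thymus CCR7- replicate 1 (1.03, adjusted p = 0.105) or 2 (0.92, adjusted p = 0.14) and without spleen CCR7- replicate 2 (1.09, adjusted p = 0.0859) or 3 (0.81, adjusted p = 0.156), and with its other probe set (0.99, adjusted p = 0.092). The difference of Ccnd1 was 0.33 (limma, adjusted p = 0.74), and its probe set of largest variance gave 1.17 (adjusted p = 0.0217). Ccne2 differed by 1.02 (95% interval -0.14 to 2.18), Ccnd3 by 0.13 (-0.50 to 0.75), Cdkn1b by -0.38 (-1.01 to 0.24) and Rb1 by -0.14 (-0.60 to 0.32), and none of these was called in limma (adjusted p of 0.363 to 0.93). Of 16 E2F target genes of S phase 5 were higher in the thymus and none lower, and Cdkn3 averaged 7.85 in thymus CCR7- and 5.49 in spleen CCR7- cells (2.36 higher; limma, adjusted p = 0.000534). The T cell marker sum was 328 to 677 in thymus CCR7- and 230.5 to 251 in spleen CCR7- arrays. The thymic epithelium sum was 1458 to 1636 in thymus CCR7- and 162 to 199.98 in spleen CCR7- arrays. In thymus CCR7- arrays the B cell and macrophage sums were 253 to 337 and 1628 to 2148, against 712 to 787 and 2614 to 3784 in spleen CCR7- arrays. Their part in these differences was not tested.

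**Figure D5:**
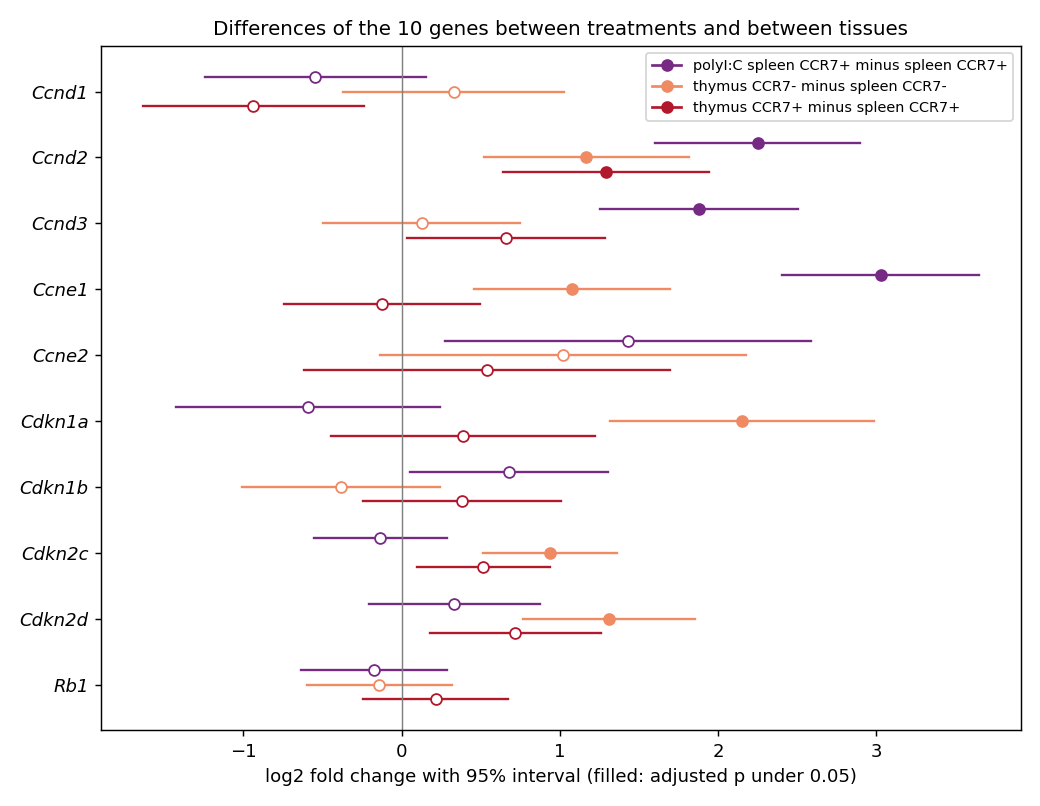
Log2 differences of the 10 genes (rows) for polyI:C minus untreated spleen CCR7+ cells and for thymus minus spleen in immature and in mature cells, with 95% intervals (horizontal axis); filled points passed an adjusted p of 0.05. Ccne1 lies at 3.03 with polyI:C, Cdkn1a at 2.15 between immature and at 0.39 between mature cells, and Ccnd2 at 1.17 and 1.29.

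Between mature cells of the tissues, 1 of the 10 genes was called higher in thymus CCR7+ than in untreated spleen CCR7+ cells and none lower, where 12.2% of all genes were called, 8.71% higher and 3.47% lower (median 0.45 against 0.036). Ccnd2 was higher by 1.29 ± 0.30 (limma, adjusted p = 0.0123), a call that ended without thymus CCR7+ replicate 2 (1.14, adjusted p = 0.064). Ccnd1 averaged 10.52 in thymus CCR7+ and 11.46 in spleen CCR7+ cells, a difference of -0.94 (limma, adjusted p = 0.0779), and was called lower with the replicate number as a block (adjusted p = 0.0493), which brought the count to 2, and without spleen CCR7+ replicate 1 (-1.16, adjusted p = 0.049). Cdkn2c and Cdkn2d arrays of the thymus all lay above those of the spleen and those of Ccnd1 and Ccnd2 did not overlap either, where 26.2% of all genes did not overlap. The first 2 had differences of 0.52 and 0.72 that missed the threshold (limma, adjusted p = 0.109 and 0.0819). Cdkn2d was called without spleen CCR7- replicate 1 or 3, which enter only the shared variance (adjusted p = 0.0402 and 0.036). The differences of the other members not called were 0.66 for Ccnd3 (95% interval 0.036 to 1.29), -0.13 for Ccne1 (-0.75 to 0.49) and 0.54 for Ccne2 (-0.62 to 1.69). They were 0.39 for Cdkn1a (-0.45 to 1.22), 0.38 for Cdkn1b (-0.25 to 1.01) and 0.22 for Rb1 (-0.24 to 0.68). The T cell marker sum was 980.1 to 2968 in thymus CCR7+ and 269 to 295 in spleen CCR7+ arrays, and the B cell marker sum was 410.0 to 1804 in thymus CCR7+ and 1394 to 4554 in spleen CCR7+ arrays. Their part was not tested.

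Without the replicate block none of the 10 genes was called for the difference between the thymic and the untreated splenic change, where 3.18% of all genes were called, and 3 of the 10 had an unadjusted p under 0.05 in limma (median -0.45 against 0.0030 over all genes). Cdkn1a changed by 0.70 in the thymus and 2.47 in the spleen (difference -1.76, 95% interval -2.94 to -0.59; limma, adjusted p = 0.111). It was called with the mean of both probe sets (-1.88, adjusted p = 0.0148), with the replicate number as a block (adjusted p = 0.0374), without spleen CCR7- replicate 2 (-2.15, adjusted p = 0.0479) and without spleen CCR7+ replicate 1 (-2.12, adjusted p = 0.0436). Ccnd1 had a difference of -1.27 (95% interval -2.25 to -0.28) and Ccne1 of -1.20 (-2.08 to -0.32), with an adjusted p of 0.181 and 0.146 in limma. With probe sets averaged Ccnd1 was called (-1.45, adjusted p = 0.0224). The rise of Ccnd2 differed by 0.12 between tissues (95% interval -0.79 to 1.04). For the other 6 genes the difference lay between -0.59 for Cdkn2d (-1.36 to 0.18) and 0.76 for Cdkn1b (-0.12 to 1.65), with Cdkn2c at -0.42, Ccne2 at -0.48, Rb1 at 0.36 and Ccnd3 at 0.54.

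The order of the groups was read from the means of each gene. Ccnd2 ran, from high to low, through polyI:C spleen CCR7+, thymus CCR7+, spleen CCR7+, thymus CCR7- and spleen CCR7- cells, and no 2 neighbours in that order overlapped in their arrays. For Ccne1 it was polyI:C spleen CCR7+, thymus CCR7-, spleen CCR7-, spleen CCR7+ and thymus CCR7+ cells. Cdkn1a was highest in thymus CCR7+, then spleen CCR7+, thymus CCR7-, polyI:C spleen CCR7+ and spleen CCR7- cells. Over the 10 genes, 29 of 40 neighbouring pairs overlapped in their arrays, and of the 27 pairs that a comparison tested 6 were called, so most adjacent positions cannot be ordered. Neighbours are by definition the groups with the closest means. The same count was not made over all genes, so it marks no trait of these 10.

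Patterns over the 15 arrays were compared by Pearson's r, as a description, since all arrays share their normalisation and the groups set much of r. Ccnd2 was nearest to Fam126a (r = 0.98), Dgkk (0.98) and Sertad1 (0.97). Nearest to Ccne2 were Fignl1 (0.98), Rrm2 (0.97), a subunit of ribonucleotide reductase, and Aurkb (0.97), the mitotic Aurora B kinase. Ccne1 had other nearest genes, Ly6i (0.94), Ifit2 (0.93), an interferon-induced gene, and Tor3a (0.92). Nearest to Cdkn1a were Cxcl16 (0.94), Sdc4 (0.94) and Ccl22 (0.93), of which Cxcl16 and Ccl22 are chemokines.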

How the data were processed

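The authors deposited 1 table of log2 RMA signal for 45101 probe sets on 15 arrays. RMA and the affy package are named in the submitters' processing notes, with versions not given in the sources used here. Which arrays were normalised together is not given either. RMA gives no detection calls and compresses changes of dim genes. RNA passed through successive rounds of amplification before labelling, per the labels' protocols.

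Annotation gave 34958 probe sets 1 symbol, 932 several, and did not list 9211. A gene entered the test with at least 3 arrays above 4.39, the 40th percentile of all values. A model of 5 group means was fitted to all 15 arrays with limma 3.58.1 (R 4.3.3, lmFit and eBayes, 10 residual and 4.01 prior degrees of freedom), and p-values were adjusted over 13629 genes for each of 7 comparisons. The number of arrays limits precision. Array medians were 4.86 to 5.00. The members, gene lists and tests were chosen with earlier results of these data known. Beside the members, up to 3 called genes per direction were eligible from each list, and the 3 genes of highest Pearson's r for the 4 members of widest range were named.

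Replicate numbers in the titles recur in every group. Same-numbered arrays deviated together (every pair's r over 0.1) for thymus CCR7- with spleen CCR7- (0.52 to 0.57) and thymus CCR7+ with spleen CCR7+ (0.42 to 0.59). These 2 comparisons may thus be paired, which comes from the data and not from the labels. Of 60 pairs with other numbers, 21 also had an r over 0.1. P-values are from the model without pairing, except where the replicate number is named as a block. That block sets 1 effect per number for all 5 groups, although same-numbered spleen CCR7- and spleen CCR7+ arrays had an r of -0.12 to -0.098. It therefore does not model pairing within the 2 tissue comparisons alone. Promoter windows are RefSeq's; Ccnd1, Ccnd2, Ccne2 and Rb1 are named only.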

Additional observations from a re-analysis of the deposited data

How the results depend on the processing

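In all, 25 alternatives were run, 15 that left out 1 array and 10 others (filter, probe set choice, normalisation, variance model, compared groups only and replicate block). Of 25 called member changes 21 kept their call in every alternative and 4 lost it in some. Of 45 changes not called, 13 were called in some and 32 in none. A reversal was counted only where the change was called with or without the alternative, and 0 were found. Changes not called could switch sign, as that of Rb1 in thymic maturation did (0.42, and -0.22 at the lowest). The replicate block raised the members called to 2 between mature cells of the tissues (1 without it) and to 1 for the difference between tissues (0 without it; Cdkn1a, adjusted p = 0.0374). It left the 5 of the immature cells, and between polyI:C and untreated mature cells it gave 4 members (Ccne2, adjusted p = 0.047). Same-numbered arrays of those 2 groups had an r of 0.0015 to 0.64, and the labels do not say whether the numbers pair them. The difference between tissues had 2 members called with probe sets averaged per gene and 2 with the probe set of largest variance. Leaving out 1 array gave 3 to 5 members for immature cells (3 without thymus CCR7- replicate 1 or 2 or spleen CCR7- replicate 3), 0 to 2 for mature cells and 0 to 1 for the difference. Over all genes, fitting only the compared groups called 1081 between polyI:C and untreated mature cells (2486 in the model of all groups) and 802 between mature cells of the tissues (1660). Leaving out 1 array called 974 to 1988 genes between mature cells (974 without thymus CCR7+ replicate 2) and 270 to 534 for the difference (433 with all arrays, 270 without thymus CCR7- replicate 3). The cause was not tested. Signal near background limits Cdkn2a in CCR7- cells, Cdkn2b in spleen CCR7- cells, Cdkn3 in CCR7+ cells and Cdkn1c in untreated spleen cells.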

Other observations

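Genes that act on G1 from outside the cyclin and inhibitor families moved in both directions. Of 17 tested genes of FoxO, MYC and mitogen control, 8 rose and 2 fell in thymic maturation, 3 rose and 4 fell in the untreated spleen, and 5 rose and 5 fell with polyI:C, where 37.3%, 36.5% and 46.4% of all genes were called. Mxd1, a MYC antagonist, averaged 12.27 in thymus CCR7+ and 8.90 in thymus CCR7- cells. In spleen it averaged 12.57 after polyI:C and 12.06 in untreated CCR7+ cells, against 8.999 in CCR7- cells. It rose by 3.37, 3.06 and 3.57 in the thymus, the untreated spleen and with polyI:C (limma, adjusted p = 3.43e-07, 1.56e-06 and 1.37e-07). Mycl, the MYC family member of DCs, averaged 6.17 in thymus CCR7+ and 11.13 in thymus CCR7- cells. In untreated spleen it averaged 9.78 in CCR7+ and 11.90 in CCR7- cells. It fell in both tissues, and the thymic fall exceeded the splenic one (difference -2.84; limma, adjusted p = 2.47e-05). Foxo1, a transcription factor that restrains growth, averaged 8.25 in thymus CCR7+ and 7.03 in thymus CCR7- cells, and 8.06 in untreated spleen CCR7+ and 8.88 in spleen CCR7- cells. Its change differed between the tissues by 2.03 (limma, adjusted p = 0.00378), higher with maturation in the thymus and lower in the spleen.

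Of 9 quiescence genes 5 rose in the thymus, 1 in the untreated spleen and 1 with polyI:C, and none fell. Of all genes 16.8%, 12.3% and 18.4% were called higher in these comparisons, so the splenic counts lie at or below that share. Gadd45b, a stress-induced member of that list, averaged 12.68 in thymus CCR7+ and 9.29 in thymus CCR7- cells, and 12.52 after polyI:C and 12.45 in untreated spleen CCR7+ cells, against 7.78 in spleen CCR7- cells. It rose by 3.40, 4.67 and 4.74 in the thymus, the untreated spleen and with polyI:C (limma, adjusted p = 5.79e-07, 5.27e-08 and 1.61e-08). In the list of FoxO, MYC and mitogen control, Ccng2, an unconventional cyclin that rises as cells leave the cycle, averaged 12.60 in thymus CCR7+ and 10.25 in thymus CCR7- cells, and 12.63 in untreated spleen CCR7+ and 9.66 in spleen CCR7- cells. It rose by 2.35 and 2.97 (limma, adjusted p = 9.34e-09 and 2.72e-09).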
